A study of Mus musculus with 30 samples.

Results

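The Sox1-positive cells of day 5 were 1 sample of sorted neuroectodermal cells, which is set here against the mean of the Sox1-positive samples of days 3 and 4. These are 3 of the 10 samples of the series, and 9 of its 30 arrays. The rule was the label of each sample, a sort for Sox1 and the day of culture, with no measured value. All came from 129-derived mouse embryonic stem (ES) cells in which green fluorescent protein reports Sox1, and each sample was hybridised to the 3 Affymetrix U74 version 2 chips (A, B and C). The groups were Sox1-positive cells of day 5 (1 sample), Sox1-positive cells of day 3 and of day 4 (1 sample each) and ES cells (3 samples), which served for the spread between replicates. Differentiated cells had grown as floating aggregates in growth-factor-minimized medium with 10% Knockout Serum Replacement (the SFEB culture), and ES cells were the undifferentiated start of that culture. Other samples of the series, of day 1, of day 2 sorted by E-cadherin and of day 3 Sox1-negative cells, are given as levels where they help to place day 5.

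Sox1 encodes a transcription factor of the early neural plate, and cells that carry it are neural progenitors with a choice of regional and neuronal fates ahead of them. In the neural tube the ventral midline, or floor plate, secretes Sonic hedgehog. That signal passes through the receptor Ptch1 and the Gli factors, and it sets up ventral progenitor domains marked by homeobox genes of the Nkx2 and Nkx6 families, while proneural factors of the basic helix-loop-helix family drive cells out of the cycle towards neurons.

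The comparison asks what set the sorted cells apart on day 5, and which of these differences came as a step on day 5 and which as a steady trend over the 3 days. As deposited, each probe set of an array has 1 intensity on a linear scale, already brought to nearly the same trimmed mean on every array. Differences are on the scale of log2 of the intensity plus 16, which understates changes of genes with low signals. Limma fitted day 5, the pair of days 3 and 4, and the ES cells as 3 groups on 12941 genes, with 1 probe set for each gene and Benjamini-Hochberg adjustment over the 3 chips. A gene was called at an adjusted p under 0.05. The lone day 5 sample is assumed to vary like the other groups, whose spread comes from 3 ES samples and from the gap between days 3 and 4. Nothing in the labels says whether samples of a group came from separate cultures, so the p-values measure only the spread between these samples, which may be technical. In a bulk sample fewer cells of a type and less RNA per cell cannot be told apart.

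The sort label was checked against marker genes. The 9 markers of neural progenitors summed to an intensity of 24828 on day 5, against 22737 on day 3 and 21527 on day 4, and to 9981 to 11532 in the ES samples. Sox1 itself (probe set 92342_at) had 252 on day 5, against 308 on day 3 and 310 on day 4, and 156 ± 17.2 (SD, n = 3) in ES cells. Its difference on day 5 was -0.28 with a standard error of 0.26 and a limma adjusted p of 0.90. The same probe set had 240.8 in the Sox1-negative cells of day 3. It had 250.8 in the E-cadherin-negative and 253.1 in the E-cadherin-positive cells of day 2. The Sox1 signal of day 5 was thus close to that of these cells and does not by itself check the label. The sum of the 9 markers was 12680 in the Sox1-negative cells, below day 5. Neuron markers summed to 16556 on day 5, against 8156 on day 3 and 7633 on day 4. All 6 endoderm markers were at most 297 on day 5, and their sum was 864 on day 5, against 845 on day 3 and 894 on day 4. The neural crest, mesoderm, fibroblast and blood marker sums on day 5 were 2809, 295, 1784 and 235, against 2510, 228, 2054 and 214 on day 3 and 2631, 284, 1873 and 200 on day 4. Surface ectoderm markers summed to 2133 on day 5, against 1709 on day 3 and 1568 on day 4, and glia markers to 495, against 408 and 291. For the actin control, the signal of the 3' probe set over that of the 5' probe set, which tracks RNA integrity, was 1.34, 1.33 and 1.44 on the 3 chips on day 5. It was 0.993, 1.08 and 1.05 on day 3 and 1.15, 1.14 and 1.14 on day 4, and 1.70, 1.64 and 1.85 in ES sample 3. The part of this ratio in the results was not tested.

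On day 5 the sorted cells carried high signals of ventral neural tube genes that lay below the chip's median intensity of 190.5 on days 3 and 4. Nkx2-2, Foxa2, Nkx6-2 and Shh, which mark the floor plate or neighbouring ventral domains, rose, and so did Ckb, the brain type of creatine kinase. Dppa5a, an RNA-binding protein of pluripotent cells, fell. These 5 higher and 1 lower genes were all that limma called, 0.0386% and 0.00773% of the 12941 genes tested. At an unadjusted p under 0.05 there were 465 higher and 483 lower genes. All 6 called genes were flat over days 3 and 4, with a gap of less than 0.5 on the log2 scale. A gap between days 3 and 4 counts as spread in this fit, so a gene with a steady trend has a larger standard error than one with a step of the same size.

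Nkx2-2 (92747_at), a homeobox factor of the ventral progenitor domain beside the floor plate, had an intensity of 1908.5 on day 5, against 54.6 on day 3 and 64.1 on day 4. Its level in the other 7 samples was at most 68.3. The log2 difference was 4.68 with a standard error of 0.31 and a limma adjusted p of 0.00684. Day 5 stood alone above all other samples.

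Foxa2 (93950_at), a forkhead factor of the floor plate and also of the endoderm, had an intensity of 1315 on day 5, against 55.3 on day 3 and 51.5 on day 4. It was 28.1 to 52.3 in the other 7 samples. The log2 difference was 4.26 (SE 0.28), with a limma adjusted p of 0.00684. For both genes the values of days 3 and 4 lie below the filter on low signals of this chip (78.6), so the size of the rise depends on the pseudocount. Among 24 endoderm genes tested 4 were at least 1 higher on day 5 (Foxa2, Foxa1, the laminin chain Lamc1 and Sox17), against 3.72% of all genes, and Apoe was at least 1 lower. Of these genes limma called Foxa2. Foxa2 and Foxa1 were tested only because of their day 5 values. Sox17 (92996_at), a factor of the early endoderm, was at 33.9, 72.2 and 119 on days 3, 4 and 5 (1.02, limma adjusted p 0.598), and is named after its values were seen. The part of endoderm cells in the Foxa2 signal was not tested.

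Nkx6-2 (93182_at), a homeobox repressor of ventral progenitors, had 2140 on day 5, against 119 on day 3 and 145 on day 4, and 58.9 to 134 elsewhere. Its log2 difference was 3.87 (SE 0.28; limma adjusted p 0.00684). Shh (101831_at), the secreted hedgehog ligand of the floor plate, had 708 on day 5, against 98.8 on day 3 and 75.1 on day 4, and 116 to 154 in the other 7 samples. Its log2 difference was 2.82 (SE 0.28; limma adjusted p 0.0369). Both genes were thus highest on day 5, and Shh was lower on day 4 than in any other sample.

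Ckb (93126_at) had an intensity of 6555 on day 5, against 962 on day 3 and 754 on day 4. It was 4577 ± 371 in ES cells (SD, n = 3), 3028 on day 1 and 1340 to 1441 in the samples of day 2 and the Sox1-negative cells of day 3. Its level therefore went down from ES cells to day 4 and was high again on day 5. The log2 difference was 2.92 (SE 0.28; limma adjusted p 0.0369). A second probe set (137242_f_at) moved the same way, with 2430 on day 5, against 499 on day 3 and 563 on day 4, but was not called (2.16, limma adjusted p 0.314).

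Dppa5a (160370_at) had an intensity of 195 on day 5, against 1966 on day 3 and 1566 on day 4. It was 8475 ± 1314 in ES cells (SD, n = 3) and 5767 to 13526 in the samples of days 1 and 2 and the Sox1-negative cells of day 3. The log2 difference was -3.07 (SE 0.31; limma adjusted p 0.0369). A level that was already lower in the sorted cells of days 3 and 4 than in all the other samples but day 5 was thus lower again on day 5.

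Over probe sets, 6 rose and 2 fell. The additional rise was a probe set of the guidance molecule Sema6a (111971_at), with 714 on day 5, against 52.4 on day 3 and 62.4 on day 4, but 359 in the E-cadherin-negative cells of day 2 (log2 difference 3.32, limma adjusted p 0.0369). The probe set kept for this gene (106092_at) differed by 0.74 (limma adjusted p 0.864). The additional fall was a probe set that names no gene here (94240_i_at), with 6.52 on day 5, against 288 on day 3 and 381 on day 4. Among the called genes, Nkx2-2 and Foxa2 would not have passed the filter on low signals without their day 5 values, nor would 37 of the 482 genes at least 1 higher on day 5.

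The calls were few and depended on single samples. Without the day 3 sample, the day 4 sample or ES sample 2 there were 0 calls, without ES sample 3 there were 3 and without ES sample 1 there were 5. In 13 or 14 alternatives run for single genes, which left out the fits of all 8 groups and of the Sox1-positive samples alone, the highest adjusted p was 0.0913 for Nkx2-2 and Foxa2, 0.104 for Nkx6-2, 0.235 for Shh, 0.229 for Ckb and 0.353 for Dppa5a. The direction of all 6 was the same in each of these 13 or 14, and the log2 difference of Nkx2-2 lay between 4.00 and 4.99.

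**Figure D1:**
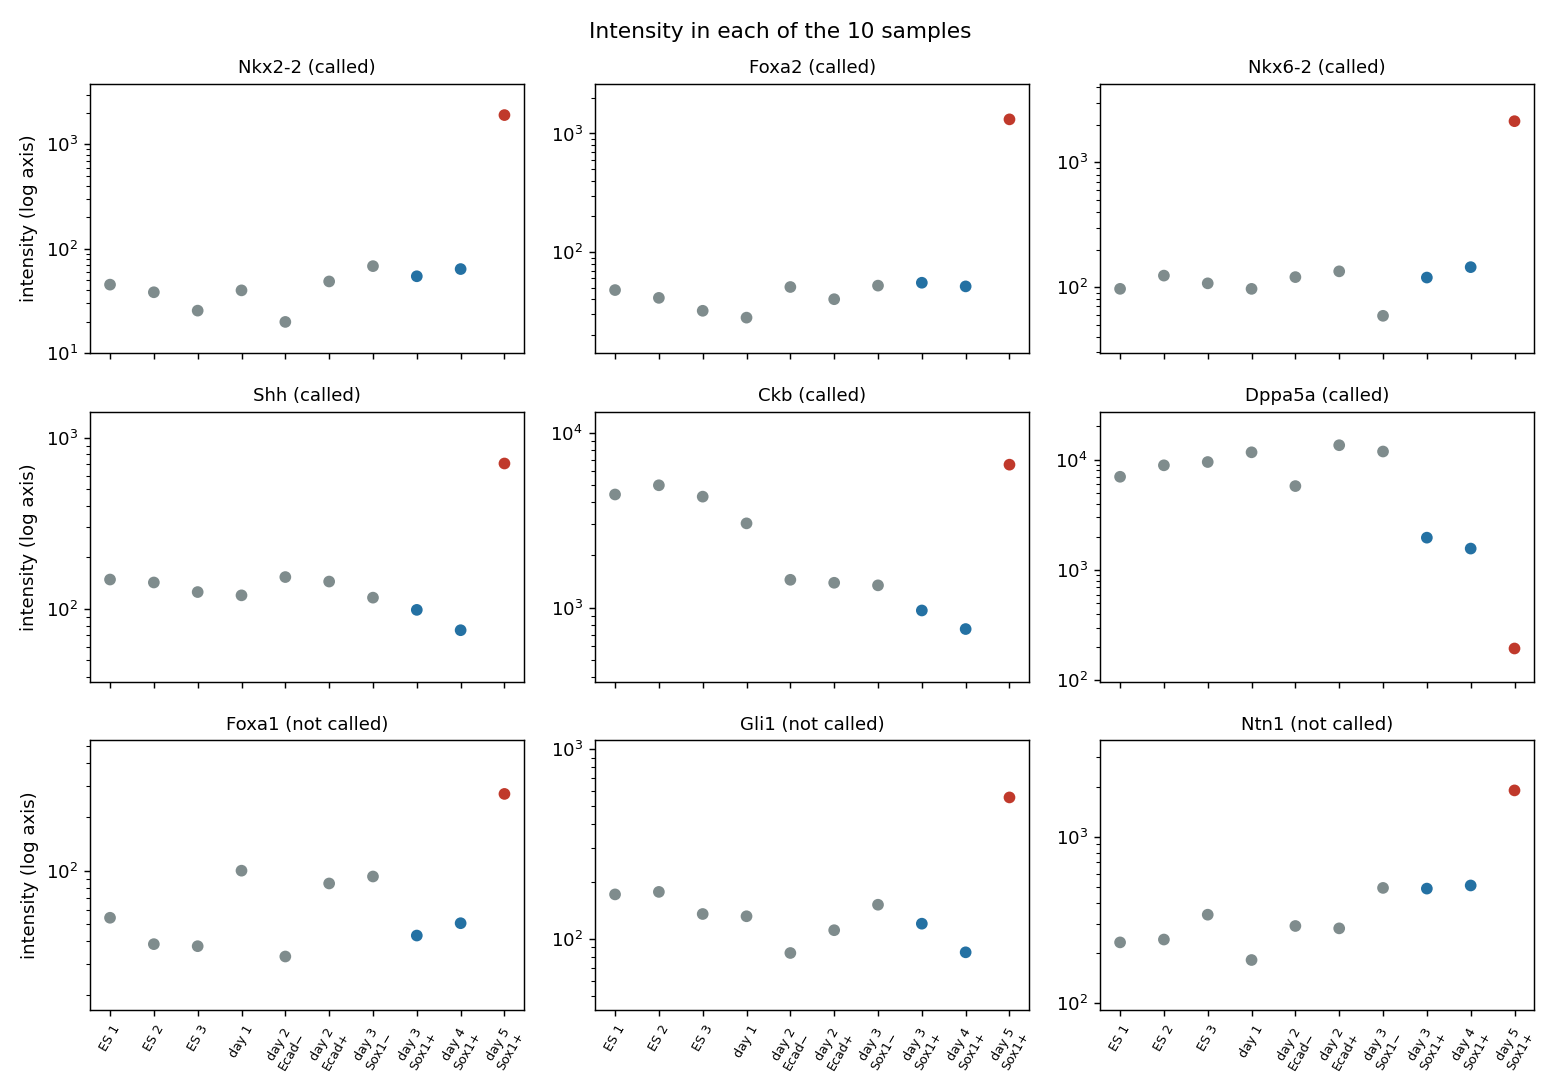
Intensity (log axis) in each of the 10 samples for the 6 called genes and for Foxa1, Gli1 and Ntn1, which were not called. The red point is day 5, blue points are Sox1-positive cells of days 3 and 4 and grey points the other samples: Nkx2-2 was 1908.5 on day 5, against 54.6 and 64.1 on days 3 and 4, and Dppa5a was 195 on day 5, against 1966 and 1566.

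The promoter windows of 4 of the called genes are printed because those genes carry the rise of day 5. Each runs from 250 bases before to 50 bases after a start site, 5′ to 3′ on the strand of the gene, from RefSeq on GRCm38.p6. Capitals mark matches, on either strand, to the CCAAT box (CCAAT) and the TATA box (TATAAA). No window shown holds the Gli motif GACCACCCA or the forkhead motif TGTTTAC on either strand. Other windows were scanned but are not shown. That of Foxa1 held the forkhead motif on the other strand, at -141 from the start site, and a CCAAT box. A further Foxa2 window held a TATA box on the other strand, at -208, while those of Ptch1 and Hhip held no match. For the called gene Shh no window was available. The CCAAT and TATA letters were chosen after the windows had been read.

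Nkx2-2, chr2:147186353-147186652, minus strand: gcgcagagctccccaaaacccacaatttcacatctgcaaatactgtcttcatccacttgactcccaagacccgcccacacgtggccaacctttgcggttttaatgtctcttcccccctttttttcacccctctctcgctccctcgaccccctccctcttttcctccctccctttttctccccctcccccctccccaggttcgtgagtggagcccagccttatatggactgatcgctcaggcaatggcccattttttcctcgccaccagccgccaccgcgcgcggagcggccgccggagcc
Foxa2, chr2:148046920-148047219, minus strand: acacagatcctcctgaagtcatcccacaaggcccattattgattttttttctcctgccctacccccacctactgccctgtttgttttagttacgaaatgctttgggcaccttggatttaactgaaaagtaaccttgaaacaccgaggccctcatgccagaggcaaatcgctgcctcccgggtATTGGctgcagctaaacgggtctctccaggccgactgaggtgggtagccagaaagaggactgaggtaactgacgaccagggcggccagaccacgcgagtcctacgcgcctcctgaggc
Nkx6-2, chr7:139582748-139583047, minus strand: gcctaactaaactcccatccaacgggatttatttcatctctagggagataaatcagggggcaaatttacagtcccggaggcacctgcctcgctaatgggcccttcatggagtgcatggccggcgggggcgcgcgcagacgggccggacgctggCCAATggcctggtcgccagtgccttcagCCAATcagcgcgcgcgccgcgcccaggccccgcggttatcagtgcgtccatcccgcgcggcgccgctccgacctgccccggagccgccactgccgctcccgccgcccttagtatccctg
Ckb, chr12:111672289-111672588, minus strand: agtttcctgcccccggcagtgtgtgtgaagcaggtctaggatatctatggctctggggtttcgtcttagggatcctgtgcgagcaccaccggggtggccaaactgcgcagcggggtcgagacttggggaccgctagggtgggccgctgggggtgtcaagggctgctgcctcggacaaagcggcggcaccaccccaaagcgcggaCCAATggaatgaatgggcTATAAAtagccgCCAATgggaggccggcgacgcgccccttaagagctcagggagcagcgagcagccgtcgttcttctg

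The window of Ckb held 2 CCAAT boxes, at positions -46 and -16 from the start site, with a TATA box between them at -28. That of Nkx6-2 held 2 CCAAT boxes, at -97 and -69. The Foxa2 window shown, the most upstream of its 3, held 1 CCAAT box on the other strand, at -68, and that of Nkx2-2 held neither motif. Of all 32851 windows of this kind, 37.4% held a CCAAT box, 13.6% a TATA box, 0.253% the Gli motif and 3.65% the forkhead motif. A match describes letters only, and the absence of one says only that these letters are not in these windows.

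Of floor plate genes and genes of neighbouring ventral domains 26 were listed, of which 15 were tested, and 14 of these 15 were higher on day 5. Limma called 4 of them higher. A difference of at least 1 on the log2 scale was reached by 9 of 15, all higher, against 3.72% of all genes tested. Their median difference was 1.90, against -0.0012 over all genes, and in 13 of the 15 day 5 was the highest of all 10 samples, against 15.4% of all genes. As 3 of them (Foxa1, Foxa2 and Nkx2-2) owed their place above the filter to day 5, these counts lean towards rises. The list was written with earlier results of these data known and is not independent evidence of its direction.

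Among the members that were not called, Foxa1 (92697_at), a forkhead factor related to Foxa2, had 269 on day 5, against 43.1 on day 3 and 50.6 on day 4 (log2 difference 2.19, limma adjusted p 0.129). Ntn1 (97977_at), which encodes the floor plate guidance cue netrin 1, had 1897 on day 5, against 487 on day 3 and 509 on day 4 (1.90, limma adjusted p 0.154). Both lay above every other sample on day 5. Nkx2-9 (96422_at), a homeobox factor of the same family, was at 40.2, 193 and 1053 on days 3, 4 and 5, which is a steady course. Nkx2-1 (134379_r_at), a homeobox factor of the ventral forebrain, was at 227, 114 and 936, but also at 97.8 to 427 in the other samples. Its other probe set (166460_r_at), below the filter on low signals, stayed at 16.2, 6.54 and 14.5. Slit2, a midline repellent that was chosen after its values were seen, was at 378, 505 and 970. Foxj1, Dbx1, Dbx2, Lmx1b, Foxn4 and Sulf1 differed by less than 1, between -0.31 and 0.93.

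In the hedgehog pathway, 4 of 16 genes tested were at least 1 higher on day 5 and 1 was at least 1 lower. The shares over all genes were 3.72% and 3.65%, and limma called only Shh. Beside this ligand the 4 higher genes were the transcriptional effector Gli1, the inhibitor Hhip and the receptor Ptch1. These are known targets of the pathway. Gli1 (94097_at) had 555 on day 5, against 120 on day 3 and 84.7 on day 4 (log2 difference 2.29, SE 0.31, limma adjusted p 0.129). Hhip (137120_at) had 1214 on day 5, against 422 on day 3 and 300.4 on day 4 (1.72, limma adjusted p 0.413). Ptch1, chosen after its values were seen, had 6312 on day 5, against 2268 on day 3 and 2111 on day 4 (1.52, limma adjusted p 0.206). Each of these was the highest of the 10 samples on day 5. Gli2 (166589_at), the main activator of the pathway, had 1405 on day 5, against 2713 on day 3 and 3009 on day 4, a difference of -1.02 that was not called (limma adjusted p 0.627). The transducer Smo (0.66), the repressor Gli3 (-0.70) and the inhibitor Sufu (-0.24) differed by less than 1. Over the pathway the median was 0.20.

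Over all genes, 482 (3.72%) were at least 1 higher on day 5 and 472 (3.65%) at least 1 lower. A course was called a step where days 3 and 4 were within 0.5 of each other, and steady where the level moved by at least 0.5 on both days in the same direction. Early courses had most of their change by day 4, and in a turn day 4 moved by at least 0.5 the opposite way. Among the higher genes 212 (1.64%) were steps, 152 (1.17%) steady, 34 (0.263%) early and 84 (0.649%) turns. Among the lower genes 259 (2%) were steps, 107 (0.827%) steady, 28 (0.216%) early and 78 (0.603%) turns. These classes describe 3 single samples and have no test. The limit of 0.5 compares with a median SD of 0.25 among the ES samples, and the median gap between days was 0.27 from day 3 to day 4 and 0.29 from day 4 to day 5.

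A straight line on day among the Sox1-positive samples gave 0 called genes in limma, with 589 higher and 480 lower at an unadjusted p under 0.05 and a smallest adjusted p of 0.178. The departure of day 5 from the line through days 3 and 4 also gave 0 calls, with 218 higher and 229 lower at an unadjusted p under 0.05. That last fit has 2 residual degrees of freedom, all from the ES samples, and its 0 says nothing about whether steps and trends differ. The sets named below as steps and trends therefore rest on levels alone.

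**Figure D2:**
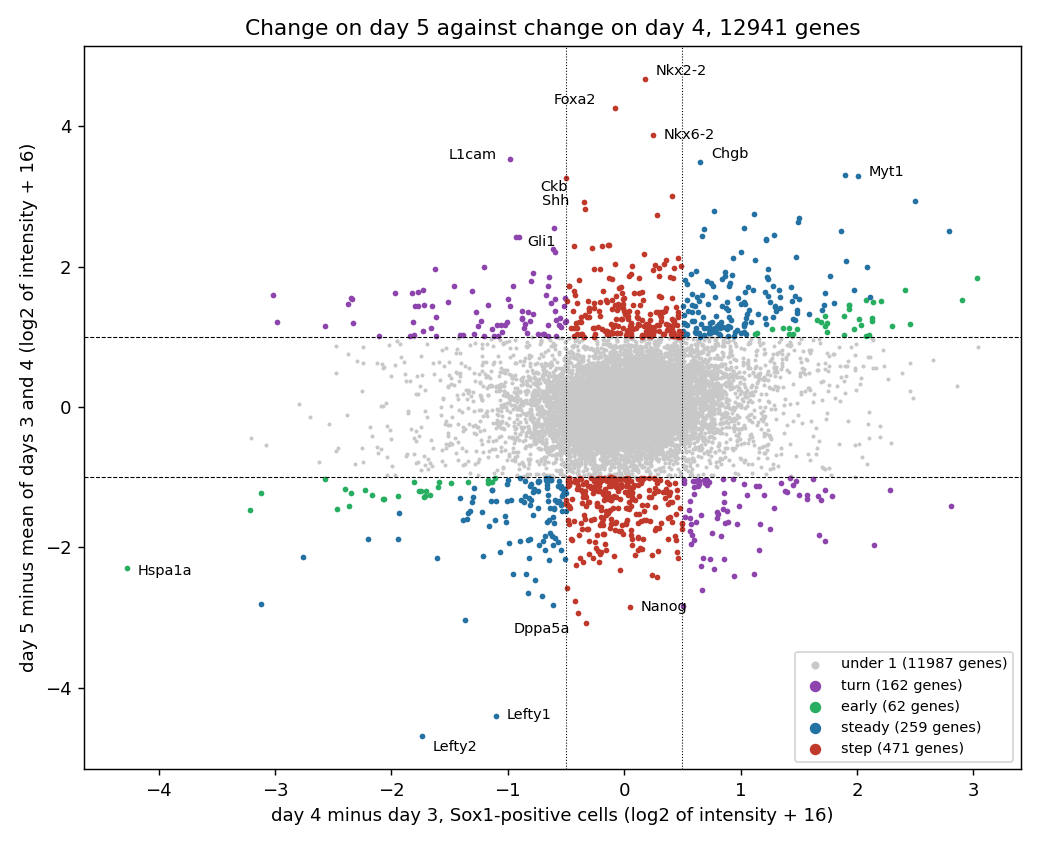
Each point is 1 of 12941 genes, with the change from day 3 to day 4 on the x axis and day 5 minus the mean of days 3 and 4 on the y axis, both in log2 of the intensity plus 16. The 471 steps (red) fill the central columns above 1 and below -1, 259 steady courses (blue) lie in the upper right and lower left, and the called rises Nkx2-2 and Foxa2 top the steps at 4.68 and 4.26.

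Among the steps the 5 largest rises of well-expressed genes were Nkx2-2, Foxa2, Nkx6-2, Gfra1 and Dusp8. Gfra1 (115410_at), a co-receptor for the growth factor GDNF, had 507 on day 5, against 48.6 on day 3 and 29.8 on day 4 (3.26, limma adjusted p 0.195). Dusp8 (116939_at), a phosphatase of MAP kinases, had 799.8 on day 5, against 72.1 on day 3 and 101 on day 4 (3.00, limma adjusted p 0.470). Neither was new on day 5. In the E-cadherin-positive cells of day 2 Gfra1 was at 865, above day 5, and Dusp8 at 381. In the E-cadherin-negative cells of day 2 they were at 408 and 631. Of the other probe sets of Gfra1 that were tested, 93872_at differed by 0.75 and 167746_f_at by 0.52. Neither gene was called, and the ES samples of both varied widely, with SDs of 88.5 and 144 around means of 142 and 139.

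The largest steady rises were Chgb, Nkx2-9, Myt1, Wnt7a and Pantr1. Chgb (92841_f_at), a protein of secretory granules, was at 40.2, 72.4 and 776 on days 3, 4 and 5 (3.49, SE 0.39) and came nearest to a call among rises, with a limma adjusted p of 0.0810. Without its day 5 value it would not have passed the filter on low signals. The ligand Wnt7a (166857_s_at) was at 216, 1301 and 4239 (2.94, limma adjusted p 0.571). Pantr1 (107876_at), a noncoding RNA that neighbours the neural gene Pou3f3, was at 597, 1033 and 5523 (2.79, limma adjusted p 0.129). Pou3f3 itself (163586_at), a POU factor of neural progenitors, was at 625, 1494 and 3840. All were already higher on day 4 than on day 3, and Wnt7a had the larger part of its difference between those days. Other Wnt7a probe sets lay below the filter on low signals and did not have this course. Of these, 170216_at was at 338, 48.1 and 50.3 on days 3, 4 and 5, and 101316_at at 24.6, 19.4 and 80.8.

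Neurogenic transcription factors were in part higher on day 5, and limma called 0 of them. Of 33 proneural and neuronal factors tested, 28 were higher on day 5, 13 by at least 1, and 0 were at least 1 lower, against 3.72% and 3.65% of all genes. Their median was 0.80. Of the 13, 8 were steady, 4 were steps and 1 was early. Myt1 (95347_at), a zinc finger factor of early neurons, was at 26.2, 154 and 812 on days 3, 4 and 5. Neurod4 (94123_at), a basic helix-loop-helix factor of neurogenesis, was at 41.5, 109 and 556, and Nhlh2 (166814_f_at), of the same family, at 629, 1483 and 5140. Their log2 differences were 3.29, 2.76 and 2.39, with limma adjusted p of 0.283, 0.168 and 0.556. In the E-cadherin-negative cells of day 2 they were already at 289, 216 and 4781, above both day 3 and day 4. Myt1, Neurod4, Neurog1 and Phox2a passed the filter only through day 5. Chosen after their values were seen, Neurog1, a proneural factor, was at 43.1, 239 and 347 and the neuronal factor Ebf2, a step, at 131, 191 and 685.

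A part of the structural genes of neurons was higher on day 5 as well. Of 39 genes of the neuronal cytoskeleton and of neuronal RNA binding tested, 31 were higher, 12 by at least 1 and 0 lower by at least 1, against 3.72% and 3.65% of all genes, with a median of 0.59. Limma called 0 of them. Of the 12, 9 were steps, 1 was steady and 2 were turns, and in 19 of the 39 day 5 was the highest of the 10 samples, against 15.4% of all genes. None of the 39 passed the filter only through day 5.

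Dcx (102307_at), a microtubule protein of migrating neurons, had 552 on day 5, against 111 on day 3 and 137 on day 4. The neuronal RNA-binding protein Elavl4 (163986_at) had 1769 on day 5, against 415 on day 3 and 437 on day 4, and Map2 (114119_at), a dendritic microtubule protein, had 1576, against 346 and 430. Their log2 differences were 2.03, 2.01 and 1.99, with limma adjusted p of 0.454, 0.129 and 0.154. In the E-cadherin-negative cells of day 2 they were at 357, 680 and 792, above both day 3 and day 4. The other probe sets of Elavl4 differed by 2.00 and 2.15, so its 3 probe sets moved alike. By contrast Tubb3 (0.72), Stmn2 (0.59) and Mapt (-0.28) differed by less than 1. The courses of the 2 lists describe the 13 and 12 genes past 1, and the difference between the lists was not tested. The median change from day 3 to day 4 was 0.40 for the factors and -0.18 for the structural genes, and from day 4 to day 5 it was 0.57 and 0.62.

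**Figure D3:**
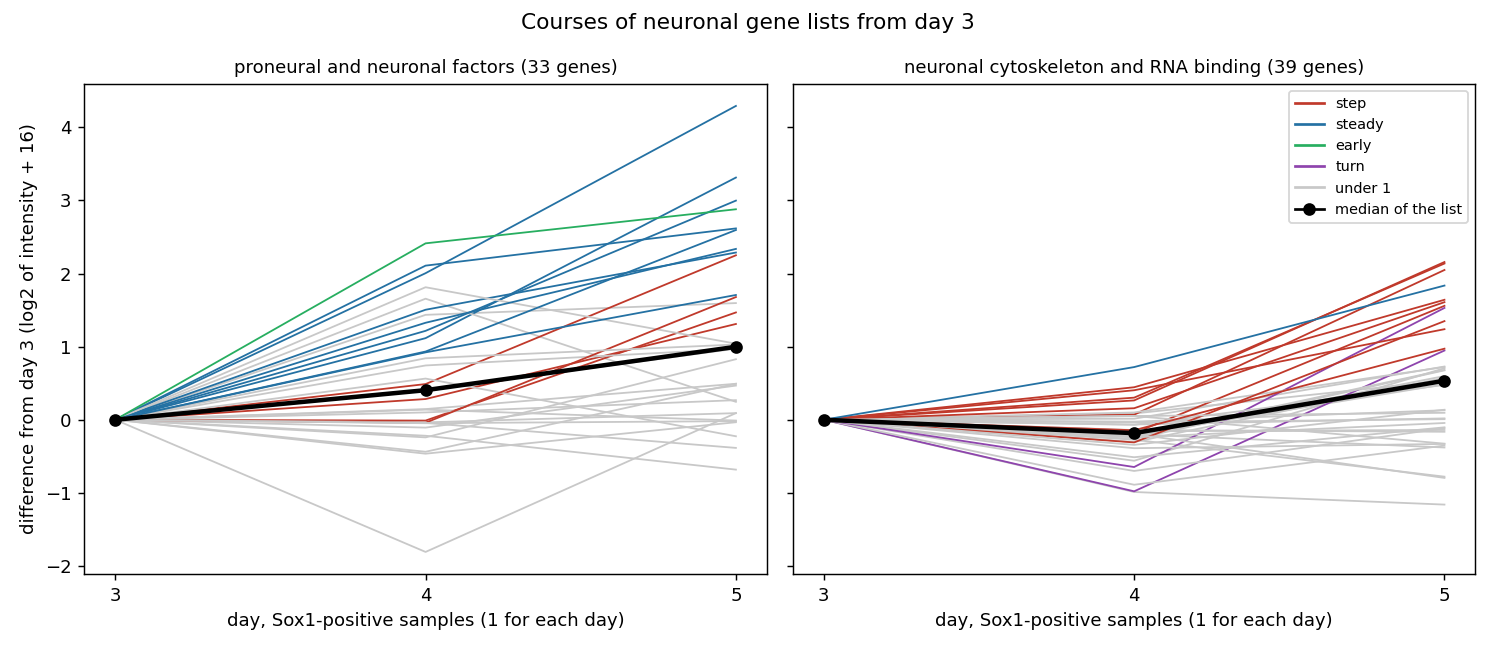
Change from day 3 in log2 of the intensity plus 16 (y axis) on days 3, 4 and 5 (x axis) for each tested gene of the 2 neuronal lists, coloured by course, with the median of the list in black. Many of the 33 factors are above 0 on day 4, where their median change is 0.40, while the 39 structural genes have a median change of -0.18 on day 4 and 0.62 between days 4 and 5.

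Synaptic and secretory genes were less uniform: of 26 tested, 4 were at least 1 higher and 1 at least 1 lower, against 3.72% and 3.65% of all genes, with a median of 0.28 and 0 called. Of the 4, Chgb and Gria2 were tested only because of their day 5 values. Beside Chgb these included the vesicle protein Syt4 (168114_i_at), at 332, 88.8 and 593 on days 3, 4 and 5, and the glutamate receptor subunit Gria2 (92947_s_at), at 88.5, 74.3 and 222. The adhesion molecule L1cam (110182_at), an axonal protein, was at 121, 53.2 and 1107 and had the largest turn among rises (3.53, limma adjusted p 0.216). The guidance ligand Slit3 (163457_f_at) was at 1347, 884 and 6472 (2.55, limma adjusted p 0.248). In both the day 4 value was the lowest of the 3 days.

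The exit from the cell cycle and the signals between neighbours had a few members past 1. Of 21 genes of the G1 phase tested, 3 were at least 1 higher and 0 lower, against 3.72% and 3.65% of all genes. All 3 were steps, and limma called 0. The inhibitor Cdkn1c (95471_at) had 2022 on day 5, against 620 on day 3 and 603 on day 4, and Cdk6 (113777_at), a G1 kinase, had 1803, against 702 and 650. Cyclin D1, encoded by Ccnd1 (167827_at), had 3898 on day 5, against 1782 on day 3 and 1713 on day 4. Thus an inhibitor and 2 drivers of the G1 phase were all higher than on days 3 and 4. In the ES samples Cdk6 was at 772 to 1649, not far below its day 5 level. Cdkn1c was at 246 to 1329 there and Ccnd1 at 1148 to 1810. In the Notch pathway 3 of 25 genes tested were at least 1 higher and 1 at least 1 lower, with 0 called. This again compares with 3.72% and 3.65% of all genes. The receptor Notch1 (97497_at) had 1758 on day 5, against 611 on day 3 and 647 on day 4, its ligand Dll1 (92931_at) was at 438, 628 and 1448 on days 3, 4 and 5, and the effector Hes3 (97156_at) had 138 on day 5, against 301 and 305.

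Of 38 progenitor genes tested, 6 were at least 1 higher and 2 at least 1 lower, against 3.72% and 3.65% of all genes. Limma called 0 of them, and their median was 0.19. In 16 of the 38 day 5 was the highest of the 10 samples, against 15.4% of all genes. Nr2f1 (102715_at), an orphan nuclear receptor active in neural progenitors, was at 852, 1540 and 4099 on days 3, 4 and 5. Plagl1 (166084_f_at), an imprinted zinc finger factor, had 10652 on day 5, against 2545 on day 3 and 3355 on day 4. Crabp1 (98108_at), a retinoic acid-binding protein, had 5075 on day 5, against 11405 on day 3 and 9898 on day 4 (-1.06, limma adjusted p 0.382). The radial glia genes Slc1a3 (110824_at), a glutamate transporter, and Ttyh1 (109769_f_at), a membrane protein of neural stem cells, were steps at 599 and 1206 on day 5, against 242 and 470 on day 3 and 193 and 507 on day 4. The 22 Hox and hindbrain genes tested had 0 members past 1 in either direction and a median of 0.07.

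Genes of the pluripotent state were lower on day 5. Of 29 tested, 23 were lower, 10 by at least 1, against 3.65% of all genes, and 0 were higher by at least 1. The median was -0.32, limma called Dppa5a alone, and day 5 was the lowest of the 10 samples in 16 of the 29, against 16.3% of all genes. Of the 10, 4 were steps, 4 were steady and 2 were turns. The ES marker sum was 1486 on day 5, against 6740 on day 3 and 5918 on day 4, and 31068 to 40300 in the ES samples.

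Nanog (161072_at), a core factor of the ES cell network, had 398 on day 5, against 2920 on day 3 and 3029 on day 4, and 7566 ± 2951 in ES cells (SD, n = 3). It was flat and then lower (-2.85, SE 0.41, limma adjusted p 0.129). Its other tested probe set (161653_f_at), with far lower signals, differed by -0.70. Dppa4 (92258_at), a chromatin protein of pluripotent cells, had 81.4 on day 5, against 673 on day 3 and 475 on day 4 (-2.58, SE 0.30), and came nearest to a call among falls, with a limma adjusted p of 0.0916. Pou5f1 (103075_at), the POU factor at the centre of pluripotency, was at 3139, 2203 and 575 on days 3, 4 and 5 (-2.16, not called). Gdf3 (92476_at), a ligand of the transforming growth factor family, was at 1845, 1033 and 206. Their other tested probe sets, with far lower signals, did not fall steadily and were highest on day 4. For Pou5f1, 170285_at was at 72.0, 202 and 82.4 (-0.49), and for Gdf3, 170287_at was at 60.2, 294 and 165 (0.24).

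Other ES factors, chosen here after their values were seen, were a mixed group. Esrrb, Klf2, Tbx3, Nr5a2 and Tfcp2l1 were within 0.2 of the mean of days 3 and 4, at intensities of 5.68 to 100.3 on day 5. Zfp42, a zinc finger factor of ES cells, had 10.99 on day 5, against 42.3 on day 3 and 123 on day 4 (-1.74, limma adjusted p 0.441). Esrrb was at 68.2 and 140 on days 3 and 4, against 12861, 10661 and 16886 in the ES samples. Sox2, which neural progenitors share with ES cells, had 5386 on day 5, against 4972 on day 3 and 4128 on day 4 (0.25). So Pou5f1, Nanog and Dppa5a were still at 1566 to 3139 on days 3 and 4 while Esrrb was not, and these 3 were at 195 to 575 on day 5. The E-cadherin gene Cdh1 (98140_at) had 404 on day 5, against 418 on day 3 and 454 on day 4 (-0.11, limma adjusted p 0.977).

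**Figure D4:**
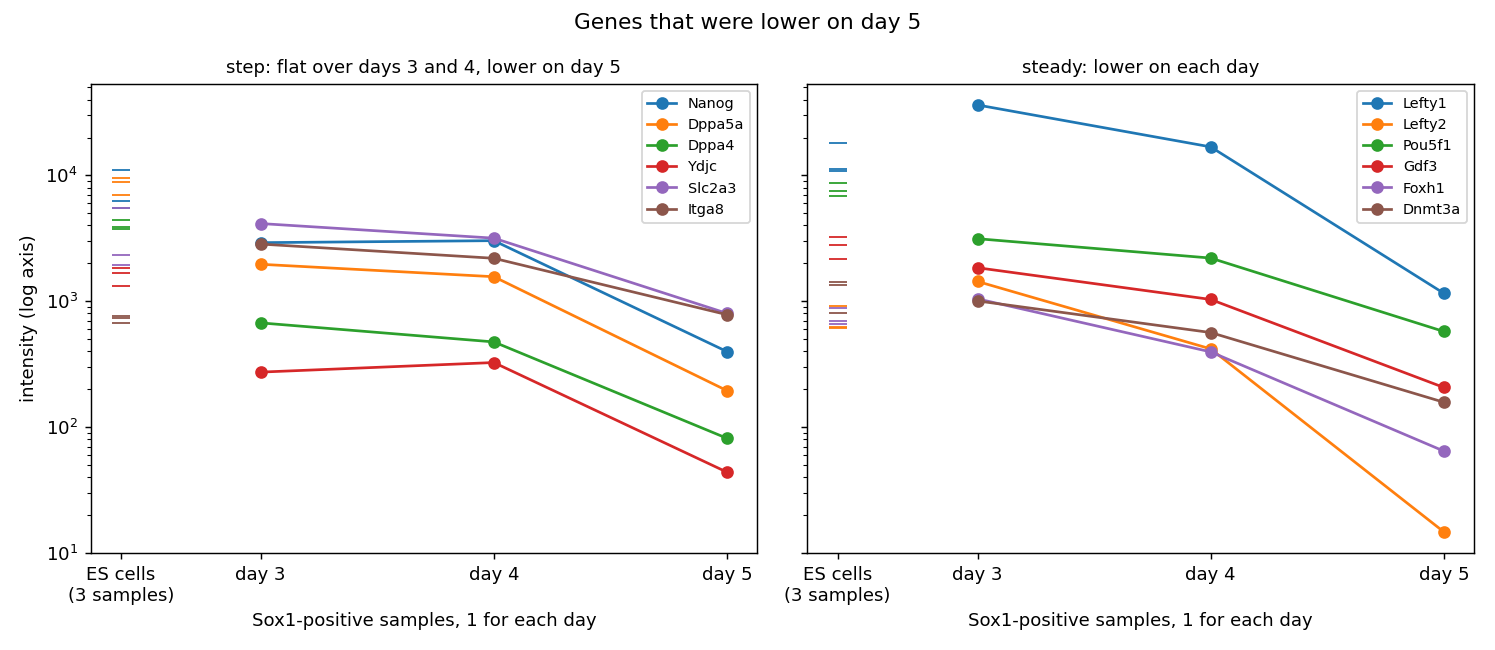
Intensity (log axis) of 6 genes on step courses (left) and 6 on steady courses (right) in Sox1-positive cells of days 3, 4 and 5, with dashes for the 3 ES samples. Nanog was 398 on day 5, against 2920 and 3029 on days 3 and 4, while Lefty1 was at 36270, 16847 and 1157 on days 3, 4 and 5.

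Nodal is a ligand of the transforming growth factor family that keeps the epiblast from neural fate, and it induces its own inhibitors. Of 16 nodal and activin genes tested, 5 were at least 1 lower on day 5 and 0 at least 1 higher. The shares over all genes were 3.65% and 3.72%, and limma called 0 of the 16. The 5 were the inhibitors Lefty2 and Lefty1, the cofactor Foxh1, and the ligands Gdf3 and Nodal. Lefty2 (134566_at) was at 1436, 418 and 14.7 on days 3, 4 and 5 (-4.69, SE 0.74, limma adjusted p 0.179). Lefty1 (166173_f_at) was at 36270, 16847 and 1157 (-4.40, SE 0.60, limma adjusted p 0.154), against 10869 to 18113 in the ES samples. Both were thus far lower on each day than on the day before.

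The probe sets of Lefty1 disagreed in size: 102345_at differed by -2.80, 162480_f_at by -0.80 and 169904_r_at by -0.24. Foxh1 (97789_at) was at 1044, 396 and 64.4 on days 3, 4 and 5. Nodal, chosen after its values were seen, was flat and then lower, with 71.6 on day 5, against 378 on day 3 and 328 on day 4 (-2.07, limma adjusted p 0.129). The receptors and Smad transducers of the list, from Acvr2a (0.74) to Smad2 (-0.21), differed by less than 1. The median of the whole list was 0.11 and its mean -0.87, so 5 genes carry the difference in sign.

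Of 14 primed epiblast genes tested, 5 were at least 1 lower and 0 at least 1 higher, against 3.65% and 3.72% of all genes. Limma called 0, and the median was -0.51. The ligand Wnt8a (99361_at) was at 481, 147 and 48.3 on days 3, 4 and 5, and the de novo DNA methyltransferase Dnmt3a (166504_r_at) at 1005, 564 and 158. Another probe set of Dnmt3a (113658_at) went the other way, by 0.54. Sall2 (162929_at), a zinc finger factor, had 799 on day 5, against 2327 on day 3 and 1973 on day 4. Of 20 genes of FGF signalling tested, 4 were at least 1 lower and 0 at least 1 higher, with the same shares over all genes. Limma called 0, the median was -0.16, and all 4 lower genes were steps. They were the feedback inhibitors Spred2 and Il17rd, the target Etv5 and, chosen after its values were seen, the receptor Fgfr1. Etv5 (163173_at) had 908 on day 5, against 2204 on day 3 and 1797 on day 4. Il17rd (133830_at) had 3566, against 8994 and 8424. For Spred2 the other 2 probe sets differed by -0.21 and 0.02.

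Few metabolic and stress genes were past 1. Of 21 glycolysis genes tested, 16 were lower and 2 of them by at least 1, against 3.65% of all genes, with a median of -0.43 and 0 called. The glucose transporter Slc2a3 (93804_at) had 801 on day 5, against 4143 on day 3 and 3171 on day 4, and the lactate transporter Slc16a3 (112405_at) had 748, against 3272 and 2373. Of the other Slc2a3 probe sets, 92292_at and 170064_f_at differed by -1.34 and -1.17 and 169614_at, with lower signals, by 0.83. Of 24 heat shock and chaperone genes tested, 4 were at least 1 lower and 0 called, again against 3.65% of all genes, with a median of -0.21. The largest change among them came between days 3 and 4: Hspa1a (93875_at), an inducible heat shock protein, was at 3521, 167 and 148 on days 3, 4 and 5, against 787 ± 1006 in ES cells (SD, n = 3). Hspa1b (100946_at) was at 1568, 166 and 61.1, but the 2 genes are near-identical copies whose probe sets may not tell them apart. In both genes day 3 was the high sample of the 3 days.

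**Figure D5:**
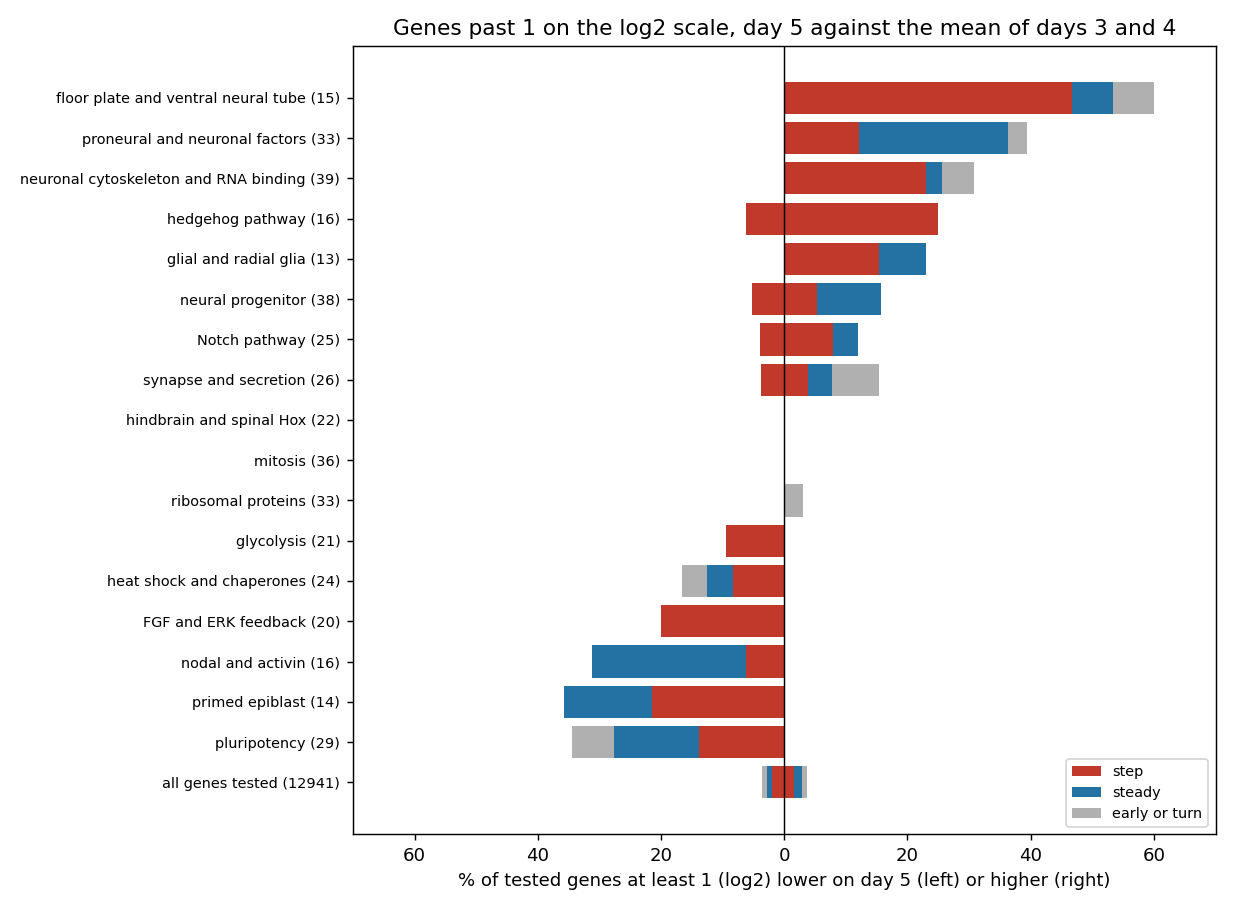
Share of tested genes (x axis, %) that were at least 1 lower on day 5 (left of 0) or at least 1 higher (right of 0) than the mean of days 3 and 4, by list (number tested in brackets) and course. The floor plate list (9 of 15) extends farthest to the right and the primed epiblast (5 of 14) and pluripotency (10 of 29) lists to the left, against 3.72% and 3.65% of all genes in the bottom row.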

How the data were processed

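Each of the 10 samples was measured as biotin-labelled cRNA from polyA RNA on 3 chips, per the labels' protocols. These speak of sorted cells, but the titles of the ES and day 1 samples name no sort. The deposited intensity values were already scaled by the authors: trimmed means (2%) of the arrays were 500.1 to 500.3 and medians 176 to 277. How signals were computed, background-corrected and scaled is not given in the sources used here. Of 36899 probe sets, 198 were controls and left out, 29131 had 1 gene in the platform annotation, 724 had several and 6846 had none, with symbols updated by Entrez ID to RefSeq names of GRCm38.p6. Probe sets whose mean intensity over the 10 arrays reached the 30th percentile of the chip (78.6, 117 and 102) were tested, 25690 in all, and each gene was represented by its probe set of highest mean on the log2 scale. Probe sets with several genes or none were tested but not named.

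Limma 3.58.1 in R 4.3.3 fitted log2 of the intensity plus 16, chip by chip. The first fit had day 5, days 3 and 4 as 1 group and the ES cells (3 residual degrees of freedom), the second a slope on day (3) and the third each day as a group (2). Residual degrees were joined with prior degrees of 3.22 to 4.62 in the first. The fits were tested on simulated data, with the spread of the ES samples, where the first recovered planted steps and the second planted slopes. The third did not recover planted steps, so its lack of calls carries no information about steps. A planted slope was a straight line, from which the third fit measures the departure, so it could not recover slopes by design. The number of arrays limits the precision. Figures were drawn with matplotlib 3.10.9 in Python 3.11.15.

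The 43 gene lists hold 1159 genes, 879 of them tested, and were written from general knowledge. Members, lists, tests and the naming rule were chosen with earlier results of these data known. By that rule the text may name Sox1, Cdh1 and Pou5f1, the called genes, the 12 largest rises and falls, the 5 largest of each course and the 3 largest of each list past 1, where for rises, falls and courses the higher level had to reach the chip's median. List members given with differences under 1 were chosen after their values were seen, as were those said to be so. Alternatives were another scaling, pseudocount, filter, prior, adjustment, rule for probe sets, class limit or set of samples.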

Additional observations from a re-analysis of the deposited data

How the results depend on the processing

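Of the 6 genes called on day 5 the same 6 were called with quantile normalization, scaling to the 75th percentile, the mean over probe sets and a further threshold of 1. In 3 settings (no filter, a pseudocount of 1, all 8 groups fitted) 3 were called, each time Foxa2, Nkx2-2 and Nkx6-2. Within the Sox1-positive samples alone 0 were called, and the mean-variance trend gave 12. The filter at the 60th percentile gave 14 (4 higher, 10 lower), and Foxa2, Nkx2-2 and Shh were no longer tested. Leaving out single samples gave 0 to 5 calls. With a pseudocount of 64 the slope on day gave 2 calls in place of 0, and the cause was not tested. The departure from the line gave 0 calls in every alternative run. It could not be fitted without day 3 or day 4.

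A limit of 2 in place of 1 left 21 higher and 28 lower steps and 21 higher and 19 lower steady courses. The filter at the 60th percentile left 106 and 139 steps and 71 and 57 steady courses, as fewer genes were tested. A limit of 0.3 between days 3 and 4 gave 133 higher steps and 175 lower steady courses, and a pseudocount of 64 gave 59 lower steady courses. These counts moved by over 1.5 times. Of the named genes, Sfrp5 was between -2.37 and 0.026 and Tagln between -3.08 and 0.13 when single samples were left out, with the change of sign without day 3. Spred2 was 0.019 with the mean over probe sets.

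The limits are 1 sample on each day, a spread drawn largely from 3 ES samples, and signals near background in many of the genes with large differences, where the pseudocount sets their size.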

Other observations

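Several large differences were of genes in none of the groups described above, and limma called none of them. Among steps, Sprn (129221_at), which encodes the prion-related protein Shadoo, had 27.1 on day 5, against 363 on day 3 and 272 on day 4 (log2 difference -2.94, limma adjusted p 0.149). Ydjc (165441_at) had 43.8 on day 5, against 273 on day 3 and 326 on day 4, and 1609 ± 259 in ES cells (SD, n = 3). The X-linked homeobox gene Rhox5 (101368_at) had 25.9 on day 5, against 192 on day 3 and 163 on day 4, and 2562 ± 584 in ES cells (SD, n = 3). Both were lower in all 3 Sox1-positive samples than in ES cells. Among steady courses, Crip1 (94061_at), a LIM domain protein, was at 343, 219 and 24.9 on days 3, 4 and 5, and the receptor Epha2 (103980_at) at 319, 204 and 53.9. Itga8 (166680_at), an integrin subunit, went the other way relative to ES cells: it had 782 on day 5, against 2846 on day 3 and 2194 on day 4, and 722 ± 42.1 in ES cells (SD, n = 3).

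The early courses turned on the day 3 sample. Scrt2 (107382_at), a zinc finger repressor of neurons, was at 40.3, 284 and 398 on days 3, 4 and 5, and Kmt5b (166660_at), a histone methyltransferase, at 341, 2651 and 2793. Scrt2 was higher still, at 532, in the E-cadherin-negative cells of day 2. Of the other probe sets of Kmt5b, 114569_at differed by -0.09, 116096_at by 0.10, 114401_at by 0.52 and 130823_at by 1.66. From day 3 to day 4 these moved by only -0.07 to 0.30, so the early course of Kmt5b rests on 166660_at alone. Tagln (93541_at), an actin-binding protein of smooth muscle, was at 1764, 176 and 195, and the neuropeptide precursor Vgf (116877_at) at 681, 110 and 92.2. In the ES samples both varied widely, at 1552 ± 1167 and 715 ± 568 (SD, n = 3). The imprinted inhibitor of placental growth Phlda2 (104548_at) was at 548, 170 and 131. In turns, the Peak1 probe set 141119_at was at 312, 693 and 76.6 and Olfm3 (167367_at), an olfactomedin, at 599, 1170 and 145, so that day 4 was the high sample in both.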
